A study of Mus musculus with 4 samples.

Results

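Among the binding sites of the RNA helicase DDX5 in cultured mouse spermatogonia was a small group of intron sites that hold rows of sequences close to the CLEAR element. Members were chosen by their annotation and their sequence: an intron peak, a centre over 1 kb from a transcription start site (TSS), and 3 or more elements within 1 mismatch of the CLEAR consensus. This selected 4 of the 101 peaks in the deposited list, those assigned to *Atxn1*, *P2rx7*, *Plbd1* and *1700012D16Rik*. The number of elements was therefore fixed by the choice and is given as a description. The peak scores were already known when the choice was made.

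The cells were wildtype undifferentiated spermatogonia from CBA mice, which include the stem cells of the testis, and were cultured on feeder cells that can no longer divide. Chromatin from 2 independently derived lines was precipitated with a goat antibody against DDX5, and 2 ChIP and 2 input libraries were made, each from 20 ng of DNA. The authors deposited the peaks found in both lines as 1 list, with 1 peak score for each. No value of a single library was analysed here, so the spread between the lines, the depth and the enrichment over input are unknown for every peak, no test was made, and the cell type could not be checked against its markers.

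DDX5 unwinds RNA and also acts as a co-regulator of transcription factors. The CLEAR element, named for coordinated lysosomal expression and regulation, is an extended E-box with the core CACGTG, through which TFEB and its relatives of the MITF family, basic helix-loop-helix factors, bind the promoters of lysosomal and autophagy genes. MITF factors are also known to bind sites in which the core reads CACATG, or CATGTG on the other strand. The paper reports the CLEAR element as enriched in the DDX5 peaks and DDX5 at the promoters of several TFEB targets. It found no interaction of DDX5 with TFEB by co-immunoprecipitation and considers DDX5 unlikely to be its co-factor. From the motif it proposes proteins that bind E-boxes as likely candidates for recruiting DDX5. Which factor, if any, lies at the sites described here was not measured.

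The consensus GTCACGTGAC is a palindrome, made of GTCAC and its reverse complement, so that a match on either strand is found by reading the plus strand. The arrays of the 4 members and of 1 further intron peak, discussed below as the nearest miss, are shown because they hold the repeated elements by which the members were chosen. All are plus-strand reference sequence of the C57BL/6J mouse (GRCm38, the same build as mm10), so copy numbers in CBA cells were not measured. Capitals mark elements within 1 mismatch of the consensus, and in *4930447A16Rik*, which has none, CACGTG. The stretches are chr13:45769845-45769908 (*Atxn1*), chr5:122647859-122648136 (*P2rx7*, the first 5 of its 6 elements), chr6:136650838-136650905 (*Plbd1*), chr3:153312123-153312303 (*1700012D16Rik*) and chr15:37347566-37347727 (*4930447A16Rik*).
Atxn1: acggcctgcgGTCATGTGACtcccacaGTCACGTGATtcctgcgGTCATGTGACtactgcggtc
P2rx7: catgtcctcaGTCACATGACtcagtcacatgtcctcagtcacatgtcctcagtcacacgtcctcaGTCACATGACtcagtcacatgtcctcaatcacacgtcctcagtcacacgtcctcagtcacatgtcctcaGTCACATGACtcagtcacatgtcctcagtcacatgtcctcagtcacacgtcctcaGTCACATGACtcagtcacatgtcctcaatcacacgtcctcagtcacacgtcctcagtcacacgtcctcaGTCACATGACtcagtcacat
Plbd1: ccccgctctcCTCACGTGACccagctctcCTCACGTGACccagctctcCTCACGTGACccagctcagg
1700012D16Rik: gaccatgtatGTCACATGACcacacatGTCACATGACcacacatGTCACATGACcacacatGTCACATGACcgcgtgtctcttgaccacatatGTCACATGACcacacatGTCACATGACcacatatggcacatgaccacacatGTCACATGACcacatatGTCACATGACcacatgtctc
4930447A16Rik: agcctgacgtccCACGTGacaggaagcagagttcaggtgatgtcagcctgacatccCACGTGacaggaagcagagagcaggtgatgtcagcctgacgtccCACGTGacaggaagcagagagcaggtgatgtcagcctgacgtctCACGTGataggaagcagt

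None of the 20 elements in the members matched the consensus exactly. Of these elements, 16 carried a change within the core and 4 kept CACGTG. The 16 were copies of 1 sequence, GTCACATGAC (G6A, counted from the 5′ end of the consensus), or of its reverse complement GTCATGTGAC (C5T), which turns the E-box core into CACATG or CATGTG. They made up all 8 elements at *1700012D16Rik*, all 6 at *P2rx7* and 2 of the 3 at *Atxn1*. The other element at *Atxn1*, in the middle of its row, read GTCACGTGAT (C10T), with the change in the last base. At *Plbd1* all 3 read CTCACGTGAC (G1C), with the change in the first base. Thus 3 of the members shared 1 variant of the element while *Plbd1* held another, although apart from the elements the peaks had little sequence in common: the longest run of identical bases between any pair of members, on either strand, was 13 bp.

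In promoter peaks nearly all elements kept CACGTG, as at *Plbd1*, and the variant shared by the other 3 members was absent. The 31 promoter peaks held 43 elements, of which 41 (95.3%) had the core CACGTG and none CACATG or CATGTG, against 4 (20%) and 16 (80%) of the elements in the members. For comparison, the 34709 elements in the 2.65 gigabases of the 21 chromosomes had the core CACGTG in 33.4% and CACATG or CATGTG in 27.2%. Few of these lie in rows, and rows without a peak are given below. The exact consensus was present in 5 peaks, all in promoters. Elements within 1 array are copies of each other and do not count as independent sites, so the shares describe these 4 loci.

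The peak at *Atxn1* had the highest score of the 38 intron peaks over 1 kb from a TSS, with 20.3, and was also the longest of them, with 1203 bp (chr13:45769464-45770666). *Atxn1* codes for ataxin-1, a nuclear protein that represses transcription together with Capicua and whose polyglutamine expansion causes a spinocerebellar ataxia. The peak lay in intron 4 of 7 (NM_009124, minus strand), at 194926 bp from the TSS, and the nearest exons were 25444 bp upstream and 34887 bp downstream of its centre. Its 3 elements followed each other at a step of 17 bp within 44 bp, and lay between 171.5 and 205.5 bp from the peak centre. Allowing 2 mismatches added 1 more copy at the end of the row.

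*P2rx7* codes for an ion channel of the cell membrane that is opened by extracellular ATP. Its peak (chr5:122647685-122648716, 1032 bp) had the second highest score of the intron peaks, 17.7, and lay in intron 1 of 12 (NM_001038839, plus strand), 4273 bp downstream of the TSS of that transcript. The listed distance of -2224 bp refers to the start of a shorter transcript, NM_001284402. In the reference used here this start is at 122650383, 2182 bp from the peak centre. The peak therefore lay between 2 annotated starts of its own gene. Its 6 elements spanned 341 bp at steps of 55, 69, 55, 69 and 83 bp. They were the best matches within a longer repeat with a basic unit of 14 bp, which ran over 492 bp (35.1 copies, 76.8% identity between neighbouring units). A larger unit of 124 bp, the sum of steps of 55 and 69 bp, was repeated with 97.6% identity over 369 bp. With 2 mismatches allowed the count rose from 6 to 20 elements, and the arm GTCAC or its reverse complement occurred 33 times, against at most 5 in any other intron peak outside the group. CACGTG was absent from this peak, whereas CACATG or CATGTG occurred 23 times.

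The peak at *Plbd1* (chr6:136650441-136651222, 782 bp) had a score of 12.96, rank 4 of the intron peaks. *Plbd1* codes for a phospholipase B domain protein. The peak centre lay in intron 2 of 10 (NM_025806, minus strand), 11062 bp from the TSS by the list and 899 bp from the upstream exon. Its 3 elements, at a step of 19 bp, occupied 48 bp between 21 and 59 bp from the centre, so that they were the closest of the compact rows to the middle of a peak. All of the CACGTG sites of this peak, 3 in number, lay within these elements. The authors' detailed annotation places the centre in RMER10A, a long terminal repeat of the ERVL family, and 42.2% of the peak was soft-masked as repeated sequence, the highest share among the 38 intron peaks. The elements themselves were not masked. A centre in a listed repeat was found in 1 of the 4 members and in 7 of the 34 other intron peaks.

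The largest number of elements accompanied the lowest score. The peak assigned to *1700012D16Rik*, a non-coding transcript, held 8 elements and had a score of 6.97 and a length of 632 bp (chr3:153312056-153312687). The transcript started 13722 bp away, and the peak itself lay in intron 3 of 4 of *St6galnac3* (NM_011372, minus strand), which codes for a sialyltransferase, at 412761 bp from the TSS of that gene. The intron is 204736 bp long and the nearest exon was 99090 bp from the peak centre. The elements spanned 161 bp at steps from 17 to 34 bp, and 5 of the 7 steps were 17 bp, the step also seen at *Atxn1*. All lay on 1 side of the centre, between 83 and 234 bp from it. The repeat as a whole had 10.6 copies with 83.5% identity between neighbouring units, and its 1 CACGTG stood just outside the row of elements.

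**Figure D1:**
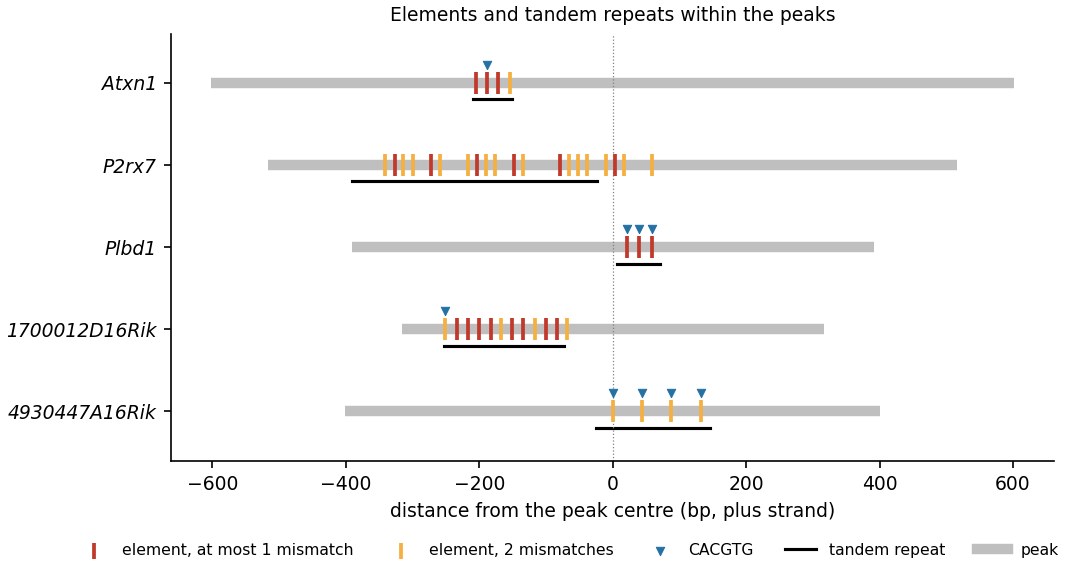
Position of elements within 1 mismatch (red) and with 2 mismatches (orange) of the CLEAR consensus, of CACGTG (blue) and of the best-scoring tandem repeat (black line) in 5 intron peaks (grey bars), in bp from the peak centre. The elements of *Atxn1* and *1700012D16Rik* sit to the left of the centre, those of *P2rx7* run from -327 to 4 bp, and those of *Plbd1* lie between 21 and 59 bp.

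The map of the sites shows that the arrays took up only part of each peak, and that among the members none but the row at *P2rx7* reached the centre. Peaks were called as broad regions and the list gives no summit, so where within a peak the signal was highest is unknown. Comparison of each peak with itself showed the same difference in size, with a dense block at *P2rx7*, a smaller one at *1700012D16Rik* and a few short lines at *Plbd1* and *Atxn1*.

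**Figure D2:**
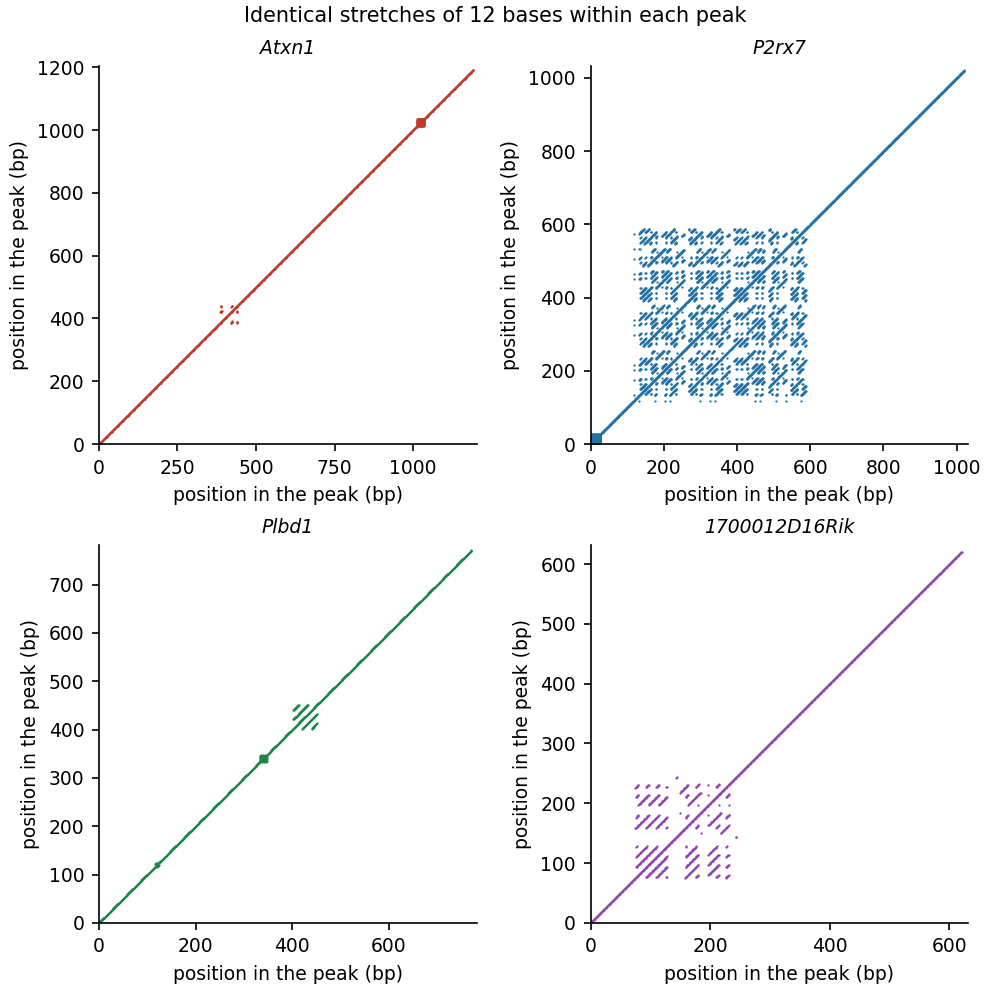
Self-comparison of the 4 peaks, where each dot marks 12 identical bases at the positions, in bp from the start of the peak, given on both axes. Dots off the diagonal are repeats: they fill a block of about the repeat length at *P2rx7* and at *1700012D16Rik*, and filled squares on the diagonal are runs of a very short unit.

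To see how the members relate to other intron sites, peak score, length, host gene and distance to the TSS were compared with the 34 other intron peaks over 1 kb from a TSS. Of all 101 peaks 8 (7.92%) held 3 or more elements, of the 31 promoter peaks 4 (12.9%) and of the 38 intron peaks the 4 members (10.5%), a share that the choice itself fixed. The intron peaks fell apart by element number: 32 had none, 2 had 1, none had 2, and the members had 3, 3, 6 and 8. Just outside the choice were the peaks at *Efna3* and *Mir6412*, with 1 element each. The reference was also cut into adjacent windows without overlap, whose edges can split a row. Of windows of the length of the peak at *Atxn1* whose centre lies in such an intron, 35 of 786906 (0.00445%) held 3 or more elements. Of windows of the length of the peak at *1700012D16Rik*, 34 of 1497968 (0.00227%) did. The paper found the consensus by motif analysis of these same peaks. A higher share in peaks than in windows was therefore fixed in advance, at least in part, and is given as a description.

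The median score was 15.33 in the members (range from 6.97 to 20.3) and 5.98 in the other intron peaks (range from 4.77 to 16). By score the members held ranks 1, 2, 4 and 12 of the 38. The members were chosen with their scores known, so this comparison is a description and not independent of the choice. Of the 5 intron peaks with a score of at least 10, 3 were members. The scores overlapped, as 8 of the other intron peaks were above *1700012D16Rik* and 1, at *Efna3*, was above *Plbd1*. These 8 were *Efna3* (16), *4930447A16Rik* (11.93), a pair of peaks at *Elfn1* (9.825 and 7.455), *Gm10677* (8.56), *Mir6412* (7.86), *Chd6* (7.83) and *Lncpint* (7.095), and only the first 2 of them scored above 10. The median score of the members was above that of the 31 promoter peaks, 11.805, while the highest score of the list, 41.9 in the promoter of *Lamp1*, was above them all. Whether any of these differences exceeds the variation between lines cannot be told from 1 pooled value per peak.

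**Figure D3:**
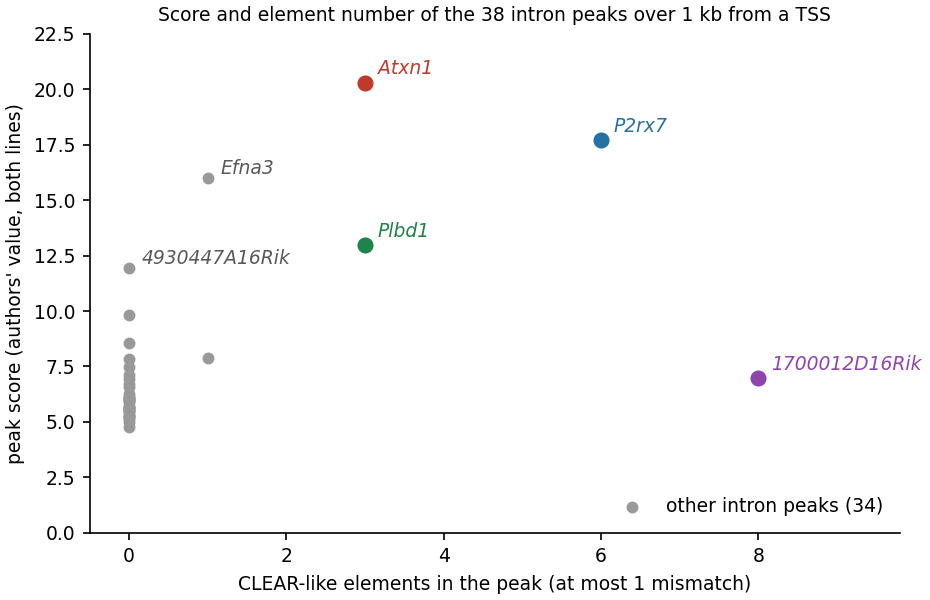
Peak score (the authors' pooled value, no unit) against the number of CLEAR-like elements in each of the 38 intron peaks over 1 kb from a TSS, with members in colour and the 34 others in grey. *Atxn1* with 3 elements scored 20.3 and *1700012D16Rik* with 8 elements scored 6.97.

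Within the group the order of the scores was that of the lengths and not of the element numbers. The longest peak, *Atxn1*, had the highest score and the shortest, *1700012D16Rik*, the lowest, with *P2rx7* and *Plbd1* in the same order between them. Divided by length, the scores of *P2rx7* (17.15 per kb), *Atxn1* (16.87 per kb) and *Plbd1* (16.57 per kb) were nearly equal, and only *1700012D16Rik* (11.03 per kb) was lower. The median of the other intron peaks was 7.885 per kb, but *Efna3*, with 17.6 per kb, was above every member and ranked 1 of the 38. With 4 peaks this order is a description only. The median length itself was 907 bp in the members and 826 bp in the others, and both groups ran over most of the same range, from 632 to 1203 bp and from 501 to 1197 bp.

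The members were closer to the TSS of their assigned gene, at a median of 12392 bp against 58550.5 bp, but they ranged from 2224 bp at *P2rx7* to 194926 bp at *Atxn1*, rank 4 of the 38 by distance. Measured to the nearest start of any transcript in the reference, *Atxn1* was at 26212 bp, and the medians were 12391.5 and 23306 bp. In 3 of the 4 members the host gene was the assigned gene, as in 20 of the 34 other intron peaks. The introns of the members were 8528 to 204736 bp long, with a median of 35423 bp, against 25629 bp in the others. GC content was 40 to 51.2% in the members (median 44.95%). Its median was 47.15% in the other intron peaks and 64.1% in promoter peaks. Every member was below the lowest promoter peak, 53.2%, as were most of the other intron peaks.

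The peaks that came nearest to the group were *Efna3* and *4930447A16Rik*. *Efna3* codes for an ephrin, a ligand of Eph receptors, and its peak lay 2084 bp from the listed TSS and 973 bp from the nearest start in the reference, in a CpG island with a GC content of 64.9%. It held 5 CACGTG sites but only 1 element, in a setting close to that of promoter peaks. The peak assigned to *4930447A16Rik* (score 11.93, 802 bp) had its centre in intron 13 of 15 of *Grhl2* (NM_026496), which codes for an epithelial transcription factor, 188 bp from the next exon, and extended past the end of that intron. It held a repeat of 44 bp with 3.9 copies and 95.3% identity, each copy with 1 CACGTG. In 3 copies the site read CCCACGTGAC (G1C and T2C) and in the last CTCACGTGAT (G1C and C10T), so that every copy was 2 bases away from the consensus and the peak fell outside the choice. This peak and *Efna3*, which held 3 elements at that setting, joined the members when 2 mismatches were allowed.

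All peaks were then searched for tandem repeats of any sequence, with a unit of 10 to 200 bp. The repeat score counted 1 for each base equal to the base 1 unit further on and -2 for each that differed, and runs of units of up to 6 bp were left out. Only 4 of the 101 peaks scored above 40, and all of them were intron peaks with E-box-like repeats: *P2rx7* (227, unit of 124 bp), *4930447A16Rik* (110, 44 bp), *1700012D16Rik* (83, 17 bp) and *Plbd1* (43, 19 bp). *Atxn1* (19, 17 bp) had rank 9. In the other intron peaks the median was 9 (range from 8 to 110), and in promoter peaks it was 10 with a maximum of 15. Besides *4930447A16Rik*, the intron peaks at *Galnt4* (21) and *Mir6412* (20, the lower of its pair by peak score), which hold no element and were named after their values were seen, were above *Atxn1*. By repeat score *Atxn1* therefore did not stand apart from intron peaks without elements. In the promoter of *Lamp1*, which codes for a lysosomal membrane protein, the 3 elements spanned 125 bp and its repeat score was 13. In that of *4933434E20Rik* they spanned 317 bp and the score was 9. The search for repeats was added with the arrays already known, and the members were chosen for their elements, so these scores are a description.

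**Figure D4:**
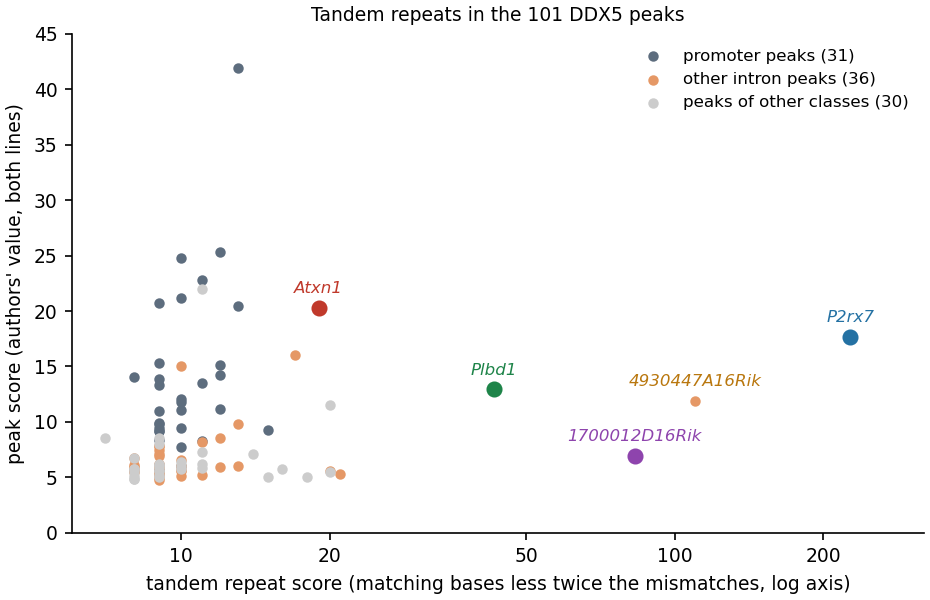
Peak score (the authors' pooled value) against the best tandem repeat score of each of the 101 peaks, on a log axis, with members in colour and other peaks by class. *P2rx7*, *4930447A16Rik*, *1700012D16Rik* and *Plbd1* stand apart at repeat scores of 43 to 227, while promoter peaks reach at most 15.

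Reads with a low mapping quality were removed by the authors, so the arrays were checked for stretches that occur more than once in the genome. The share of stretches of 50 bases, the length of the reads, that occur once in the reference was 100% at *Atxn1* and *1700012D16Rik*, 99.6% at *Plbd1* and 76.5% at *P2rx7*. At *P2rx7* the stretches that touch the array were unique in 40.8% and all others in 100%, and no stretch occurred more than 3 times. Thus in 3 of the 4 arrays every stretch of this length was unique in the reference, though near-identical copies were not counted. With 36 bases the shares were 99% at *Atxn1*, 96% at *1700012D16Rik*, 90.1% at *Plbd1* and 66.2% at *P2rx7*. The score at *P2rx7* came from a peak in which part of the array could not be placed uniquely. The part of mapping in the scores was not tested.

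Rows of CLEAR-like elements also occurred at many places without a DDX5 peak. In the reference, 80 clusters held 3 or more elements within 1 kb, and 9 of them (11.2%) overlapped a peak. Overlapping matches were counted separately here. Some clusters without a peak were therefore a single stretch of 20 bp with 3 matches at a step of 5 bp. By place, 5 of the 10 clusters at promoters, 4 of the 37 in introns, none of the 31 between genes and none of the 2 in exons did so. The 4 in introns were those of the members. Any overlap with a peak was enough, so a promoter cluster of 3 elements counted although its peak held only 2. The clusters with a peak were not simply the largest. The array at *1700012D16Rik* was the fourth largest of the genome and that at *P2rx7* was 1 of 4 with 6 elements, but the largest, with 10 elements in an intron (chr1:181751488-181752007), and both with 9 elements had no peak. Of the 11 clusters with 6 or more elements, 9 had none. Stretches of 50 bases in and within 100 bp of the cluster were unique in 49.9% for the cluster with 10 elements and in 53.2% and 89.7% for those with 9, and the share was below 90% in 6 of these 9 clusters. It was 53% at *P2rx7* and 100% at *1700012D16Rik*, which had a peak. The part of mapping in the missing peaks was not tested. The arrays at *Atxn1* and *Plbd1* had the minimum of 3, as had 21 further intron clusters without a peak.

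**Figure D5:**
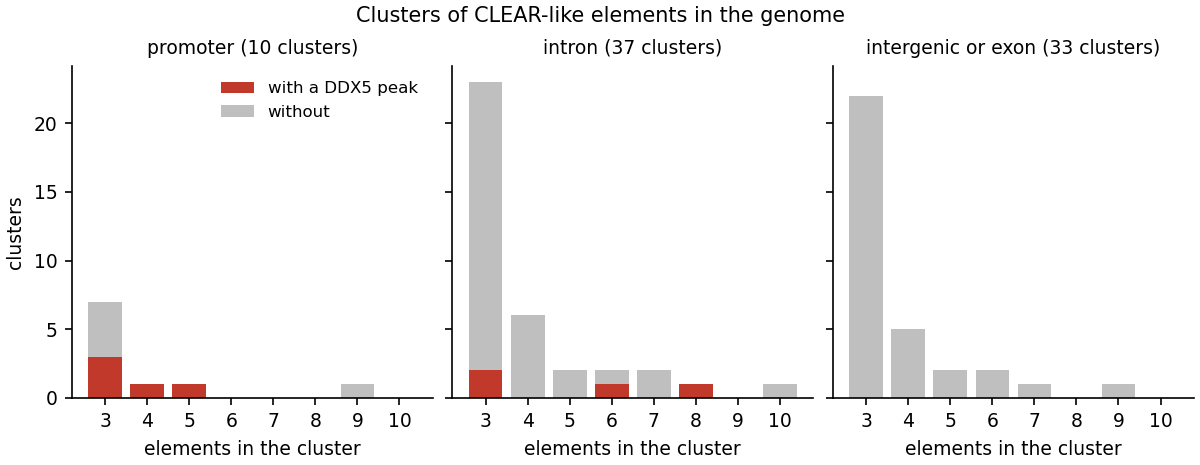
Number of clusters of 3 or more CLEAR-like elements within 1 kb in the reference by the number of elements, for promoters, introns and the rest, with those that overlap a DDX5 peak in red. Peaks overlap 5 of 10 promoter clusters and 4 of 37 intron clusters, and the cluster with 10 elements has none.

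Both kinds of element occurred in intron clusters with and without a peak. Counted by element, 63 of 127 in intron clusters without a peak had CACATG or CATGTG, against 16 of 20 in those with one. Clusters made only of elements with CACATG or CATGTG numbered 2 of 4 with a peak and 12 of 33 without, and clusters made only of CACGTG elements 1 of 4 and 7 of 33. Most intron clusters were tandem repeats: 28 of 37 had a repeat score of at least 19, the value at *Atxn1*, among them 24 of the 33 without a peak. Over intron clusters of any size, at least 90% of such stretches were unique in 3 of the 4 intron clusters with a peak and in 27 of the 33 without. A place that is missing from the list may still have been called in 1 line, since the list holds only peaks common to both.

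No row of elements was found in the promoters of the assigned and host genes that could be examined, which leave out *Atxn1*. RefSeq promoter sequences, of 300 bases from 250 before to 50 after a start (GRCm38), were found for *P2rx7*, with 2 starts, *Plbd1*, *1700012D16Rik* and *St6galnac3*, and none for *Atxn1*. The promoter of *St6galnac3* held 1 element and that of *Plbd1* 1 CACGTG, and the promoters of *P2rx7* and *1700012D16Rik* held neither. Of all 32851 such promoters, 1.84% held an element, 0.00609% held 3 or more and 7.15% held CACGTG. None of the host genes had a further DDX5 peak in its promoter.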

How the data were processed

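DDX5 ChIP and input libraries of 2 lines were sequenced as 50 bp single-end reads. The authors mapped them to mm10 (Bowtie2 2.2.5 and SAMtools 1.3.1 in the submitters' processing notes), removed reads of low mapping quality, called peaks with HOMER findPeaks under histone parameters and annotated those shared by both lines. The deposited peak score is 1 value for both lines, and how it was combined is not given in the sources used here. Positions and distances to the TSS are deposited too.

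Elements, repeats, clusters and unique stretches were computed from GRCm38.p6 with Python 3.11.15, pysam 0.24.0, numpy 2.4.6 and pandas 2.3.3, indexed with samtools, and drawn with matplotlib 3.10.9. Promoters took in the 1000 bp before and the 100 bp after a curated TSS. The searches were tested on simulated sequences. Of alternatives, a value within 1.5 times the main one was counted as kept.

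Members and lists were chosen with earlier results of these data known. Named were the members and their host genes, intron peaks with 1 or 2 elements, peaks of other classes with 3 or more, and intron peaks scoring above the lowest member. Some promoter peaks are given by count only and are not reported here by name.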

Additional observations from a re-analysis of the deposited data

How the results depend on the processing

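With no mismatch allowed, no intron peak held 3 or more elements and the count was 0 in each of the 4 members. With CACGTG as the required core the group shrank to 1 peak, *Plbd1*, and with 4 or more elements required to 2, *P2rx7* and *1700012D16Rik*. With 2 mismatches it grew to 6, and the count at *P2rx7* to 20. The difference in median score between members and other intron peaks, 9.35, fell to 3.735 among peaks with a score of at least 10 (3 against 2 peaks) and was 6.98 to 11.72 when each member was left out. The difference in median length, 81 bp, went from -44 to 206 bp when each member was left out and turned negative without *Atxn1* or *P2rx7*. The difference in median distance to the TSS, -46158.5 bp, was -10914.5 bp to the nearest reference TSS and -47488.5 to -44828.5 bp when each member was left out. With 4 or more elements required within 1 kb, the genome held 28 clusters, of which 4 overlapped a peak. Of 55 alternative values, 39 were within 1.5 times the main one. With 1 pooled score for each peak, the depth and the spread between lines limit every comparison of scores. No paired analysis was possible because the list holds no values of single libraries.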
